A study of Mus musculus with 62 samples.

Results

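Of the 8 long-RNA libraries made from HT-22 cells under a scramble oligonucleotide, 3 stood apart by high transcripts of Fos and Egr1. They were replicates 3 and 4 of the cells given amyloid beta 1-42 peptide (Aβ42) and replicate 4 of the cells given the reverse peptide, and they are called the high libraries here. The other 5, replicates 1 and 2 with Aβ42 and replicates 1, 2 and 3 with the reverse peptide, are called the low libraries. The 3 were picked among these 8, of 62 libraries in the series, for their measured Fos, Egr1 and related genes. No label sets them apart. Values of long RNA in these 8 libraries are therefore given as a description of the libraries, with no test between the sets. Because the sets were formed on the readout, they are not conditions of the study.

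HT-22 is an established mouse hippocampal cell line, and per the labels it was at passage 4 and was grown as a sub-confluent layer in medium with heat-inactivated calf serum. All 8 libraries came from cells that received a scramble locked nucleic acid oligonucleotide (LNA), given in the labels as 50 uM, for 24 h, and then 30 uM of Aβ42 or of a control peptide with the inverted sequence, in DMSO. Another 6 long-RNA libraries came from cells given an LNA against Hsf1, the heat shock transcription factor, at 150 nM, 3 with each peptide. The doses of the LNAs are printed as the labels give them, in unlike units, and could not be checked, so any comparison of the LNAs also compares unlike stated doses. The series also holds 17 long-RNA libraries of whole hippocampus from APP NL-G-F mice, which carry a humanised and mutated App allele, and from C57BL/6J mice, aged 3, 6 or 12 months. It further holds short-RNA libraries with counts along the B2 repeat. The 4 scramble replicates of each peptide are biological replicates per the design text, but no date, plate or extraction batch is named in the sources here, so a batch that divides replicates 1 to 4 cannot be told apart from the sets.

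Immediate-early genes are transcribed within minutes of a stimulus, without new protein synthesis. Serum, growth factors, depolarisation and several stresses act on them through MAP kinases, serum response factor with its Ets and MRTF partners, and CREB. Their products include the AP-1 subunits and Egr factors, which act on a later set of targets, and phosphatases and adaptors that switch MAP kinase signalling off again. In hippocampal neurons Fos, Egr1, Arc and Npas4 are used as markers of recent activity, whereas in dividing cells the same genes belong to the response to serum.

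The level of a gene is given as scaled TPM, which is the authors' TPM (transcripts per unit of the library's total, corrected for length) summed per gene identifier and divided by a median-of-ratios factor for the library. Differences are of the mean log2(scaled TPM + 1) of the 3 high libraries minus that of the 5 low libraries, a scale that understates the change of low genes. A gene is called higher or lower here when its high and low libraries did not overlap and the difference was at least 2-fold, that is 1 on the log2 scale. Of 17116 genes whose TPM averaged 1 or more, 732 were higher (4.28%) and 645 lower (3.77%) by that rule. Without the fold limit, 3299 genes (19.3%) lay wholly higher and 2939 (17.2%) wholly lower. Counts within the gene lists below are to be set beside these shares. The filter on the mean of the 8 libraries lets a gene pass through 1 set alone. Of the 732 higher genes 73 averaged below 1 in the low libraries, and of the 645 lower genes 246 averaged below 1 in the high libraries, so these had to differ. The median difference over all genes was -0.02. Where values are listed, the high libraries are in the order Aβ42 replicates 3 and 4, reverse-peptide replicate 4, and the low libraries in the order Aβ42 replicates 1 and 2, reverse-peptide replicates 1, 2 and 3.

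The high libraries were more like each other than any was like a low library. In a pair of high libraries, 4.13% to 5.34% of genes differed by 2-fold or more, against 5.60% to 8.06% in a pair of low libraries and 12.7% to 17.4% in a pair of 1 high and 1 low library. The first principal component of the 14 libraries held 33.9% of the variance, with the high libraries at 62.5 to 67.6 and the other 11 at -26.1 to -12.7. Relative depth was taken as the most frequent ratio of Coverage to FPKM among genes above a low FPKM limit. In these 8 libraries 36.8% to 41.7% of those genes had that ratio. It was 1.64, 1.20 and 2.60 in the high libraries and 0.724 to 1.21 in the low libraries. The share of TPM in protein-coding genes was 55.7% to 61.8% in the high and 48.1% to 54.3% in the low libraries, and that in mitochondrial ribosomal RNA was 6.72% to 10.4% against 11.6% to 19.98%. Depth and these shares thus moved with the sets, and their part in the differences was not tested.

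**Figure D1:**
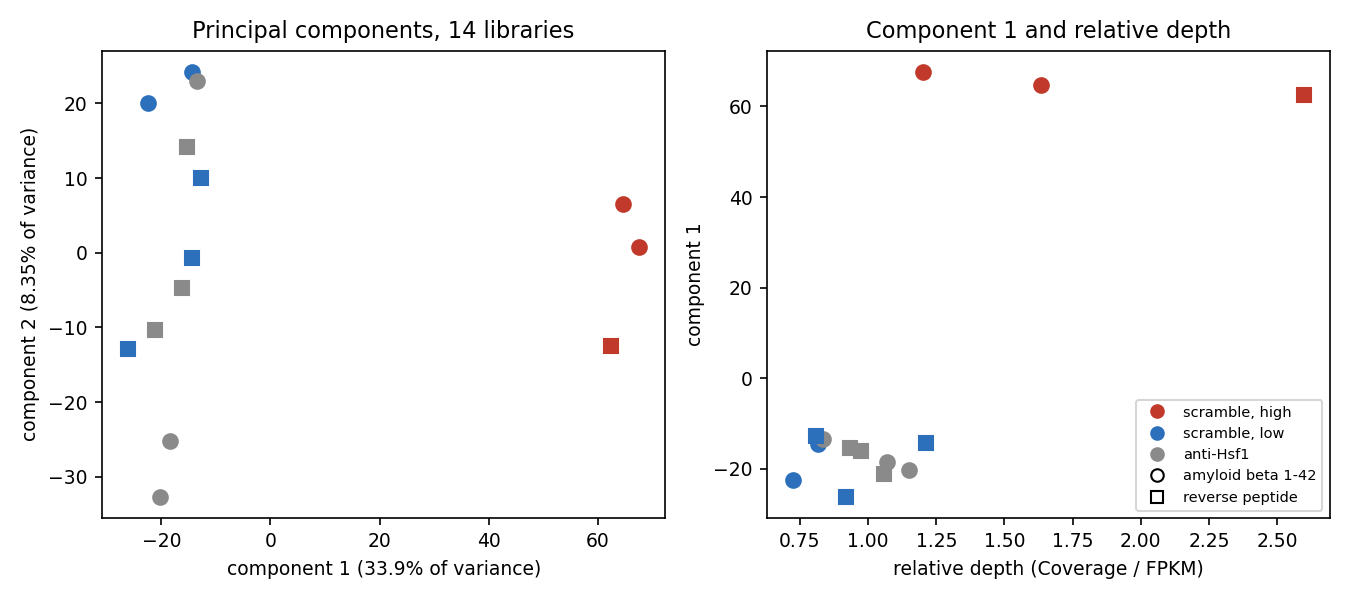
The left panel plots the first against the second principal component of log2(scaled TPM + 1) for the 14 HT-22 long-RNA libraries, and the right panel plots the first component against relative depth (Coverage over FPKM), with 1 point per library, colour for the set and shape for the peptide. The 3 high libraries lie at 62.5 to 67.6 on the first component, and the high library with the lowest depth, 1.20, lies within the depth range of the low libraries, which reach 1.21.

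Markers of other cell types were checked in both sets. Of 13 neuron markers, 11 were below 1 scaled TPM in all 8 libraries, and 7 of them (Prox1, Nefm, Nefl, Rbfox3, Snap25, Syt1 and Gad1) were listed at 0, so the defining neuronal transcripts of a hippocampal neuron were absent or near the floor in both sets. Their summed level was 6.26 to 7.82 in the high and 1.49 to 3.61 in the low libraries, most of it Tubb3, a tubulin that many dividing lines express. The 9 microglia markers summed to 53.3 to 54.9 against 6.91 to 13.3, but Tmem119 alone gave 53 to 54.7 against 6.6 to 13.1, while Ptprc, Tyrobp, P2ry12, C1qa and C1qb were listed at 0 throughout. Astrocyte markers summed to 65.4 to 75.9 against 58.1 to 66.8, with Aqp4 at 0, and among them Slc1a3, a glutamate transporter, was lower (13.4 to 17.5 against 40.3 to 44.1) and Gja1, a gap junction protein, higher (50.7 to 60.7 against 14.3 to 23.9). Oligodendrocyte markers summed to at most 2.04 and endothelial markers to at most 1.74. Fibroblast and mesenchymal markers, with 1 of 9 (Lum) at 0, were abundant in both sets, at 4859 to 5301 in the high and 2990 to 3603 in the low libraries. Col1a1, Col1a2 and Vim carried most of that sum, whereas Dcn (2.08 to 2.97 against 3.27 to 7.27) and Pdgfra (75.3 to 83.6 against 105 to 132) of the same list lay wholly lower in the high libraries and Col3a1 overlapped. In bulk RNA, fewer cells of a type and less RNA per cell cannot be told apart.

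The values that chose the libraries were those of Fos, Egr1 and related genes. The immediate-early genes given here therefore describe the choice and are no independent support for it. Fos (ENSMUSG00000021250, chromosome 12), a leucine-zipper subunit of AP-1, was at 36.8, 66.6 and 38.9 in the high and 3.15, 2.55, 3.59, 2.61 and 6.8 in the low libraries. The lowest high library exceeded the highest low library by 5.41-fold. Egr1 (ENSMUSG00000038418, chromosome 18), a zinc-finger factor induced by growth factors and by synaptic activity, was at 216, 237 and 321 in the high and 24.2, 24.7, 31.7, 38.6 and 25.7 in the low libraries, with a gap of 5.59-fold. Neither gene had a library between the sets.

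Of the 7 AP-1 subunits, 6 were higher, against 4.28% of all tested genes, with a median difference of 3.37 for the 7. The list includes Fos, on which the libraries were chosen, and that median is the value of Fos itself. Fosb was at 87.2, 101 and 54.9 in the high and 3.004, 3.43, 4.08, 4.21 and 5.07 in the low libraries. Fosl1, a Fos relative that accumulates in serum-stimulated and Ras-activated cells, was at 99.5, 105 and 93.6 in the high and 3.36, 3.39, 6.19, 5.05 and 5.73 in the low libraries. Both differed by over 4 on the log2 scale, and Fosb was lowest of the 3 high libraries with the reverse peptide. Junb, a Jun protein with weaker activity than Jun, was at 227, 236 and 274 in the high and 14.6, 22.6, 24.9, 18 and 21.3 in the low libraries. Jun and Fosl2, which had considerable levels in the low libraries, were higher by 1.7 and 1.54 (123 to 157 against 38 to 50.02, and 143 to 205 against 57.7 to 67.9 scaled TPM). Jund, the subunit usually held at a constant level, overlapped, at 87, 81.1 and 70.9 in the high and 56.2, 70.1, 86.1, 55.5 and 83.9 in the low libraries.

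Among 31 of 33 listed Egr, Nr4a, Ier and other immediate-early regulators that could be tested, 27 were higher and none lower, with a median of 2.25. Of all tested genes 4.28% were higher. The list includes Egr1, on which the libraries were chosen. Nr4a1, an orphan nuclear receptor that needs no ligand, differed most, at 204, 223 and 208 in the high and 0.953, 1.64, 2.74, 1.94 and 2.83 in the low libraries. Its lowest high library was 72.2-fold above its highest low library. Nr4a2 (9.7 to 15.8 against 2.4 to 4.87) and Nr4a3 (2.9 to 5.06 against 0.152 to 0.266), the other two members of that family, were higher by 1.56 and 2.06, from low levels. Egr3 was at 49.3, 61.3 and 112 in the high and 0.669, 0.507, 1.6, 0.677 and 0.404 in the low libraries. Egr2 was at 11.7, 41 and 47.8 in the high and 1.33, 1.15, 2.12, 1.83 and 1.3 in the low libraries, so that 1 of the Aβ42 libraries lay well below the other two high libraries. Egr3 and Nr4a3 averaged below 1 in the low libraries and passed the filter through the high libraries alone. Egr4 was listed at 0 in all 14 libraries.

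The Ier genes, short nuclear and signalling proteins named for their immediate-early response, were all higher. Ier3 differed by 3.22 (239 to 319 against 21.3 to 37.6), Ier2 by 2.66 (155 to 179 against 16.7 to 33.7), Ier5l by 2.24 (38.7 to 46.6 against 6.26 to 9.54) and Ier5 by 1.71 (66 to 72.8 against 18.4 to 25). Of other regulators, Srf, the serum response factor itself, was at 141, 132 and 117 in the high and 24.5, 38.8, 37.3, 25.3 and 31.7 in the low libraries. Myc (119.5 to 185 against 40.8 to 44.2), Klf4 (82.1 to 102 against 26 to 36.8), Klf10 (103 to 141 against 13.5 to 17.2) and Maff (57.6 to 65.5 against 4.19 to 7.98) were higher too. Genes for RNA-binding proteins that shorten the life of such transcripts, Zfp36 (23.4 to 37 against 7.76 to 13) and Zfp36l2 (379.5 to 460.4 against 73.5 to 96.2), were also in the higher group. The 4 tested regulators that were not called were Klf6 and Klf2, wholly higher by 0.57 and 0.69, and Zfp36l1 and Cebpd, which overlapped.

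**Figure D2:**
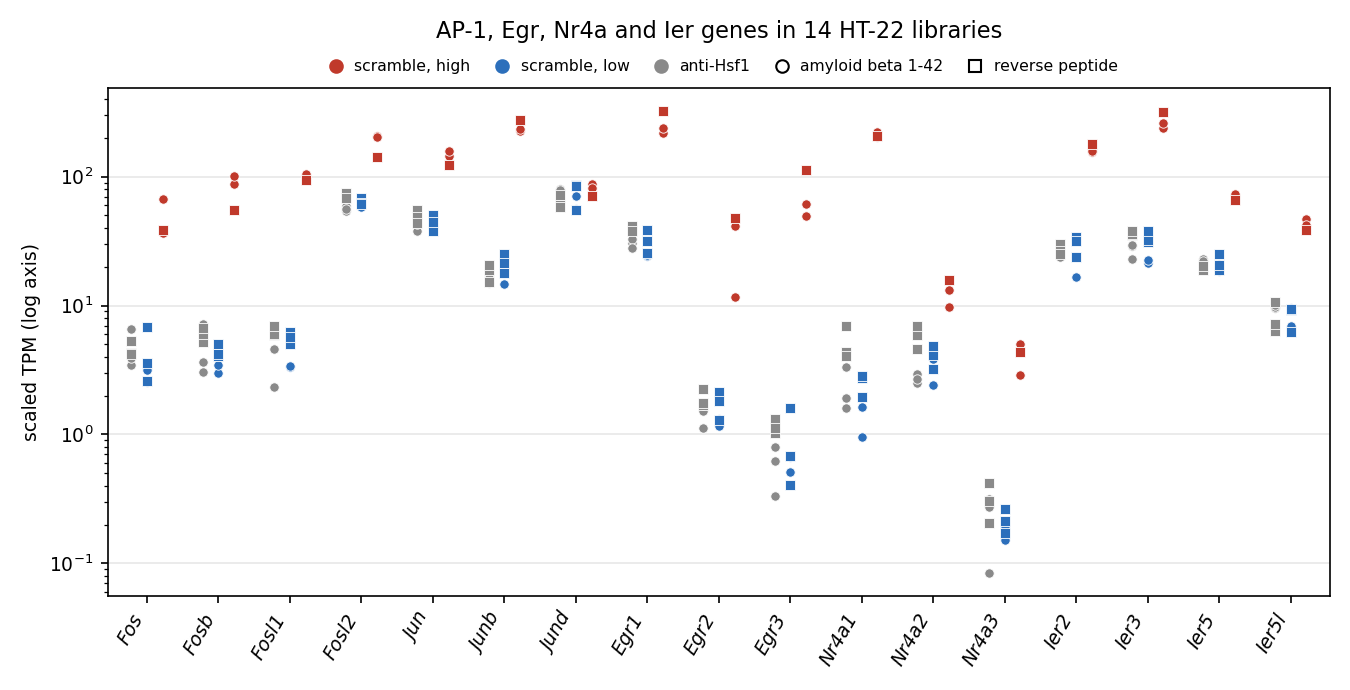
Scaled TPM on a log axis for AP-1, Egr, Nr4a and Ier genes in the 14 HT-22 long-RNA libraries, with 1 point per library, colour for the set and shape for the peptide. Apart from Jund, each gene has its 3 high libraries above all other points, as for Nr4a1 at 204 to 223 against 0.953 to 2.83 in the low libraries.

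Inhibitors of MAP kinase signalling were uneven. Of 14 tested members of a list of 15 feedback genes, 7 were higher by at least 2-fold, 6 lay wholly higher by less, 1 overlapped, and the median was 1.04. Of all tested genes 4.28% were higher and 19.3% lay wholly higher. Dusp5, a nuclear phosphatase specific for ERK, was at 135, 144 and 120.2 in the high and 3.15, 2.42, 2.68, 1.99 and 3.45 in the low libraries. Dusp6, its cytoplasmic counterpart, was at 74.1, 90.6 and 84.2 in the high and 6.23, 6.65, 11.6, 5.03 and 8.94 in the low libraries. Dusp4, another nuclear phosphatase, was at 28.5, 38 and 24.4 in the high and 1.49, 1.95, 2.48, 1.63 and 2.31 in the low libraries. Errfi1, which binds and inhibits the EGF receptor, was at 391, 458 and 321 in the high and 12.7, 14.2, 14.2, 12.4 and 14.2 in the low libraries. These 4 differed by 5.17, 3.32, 3.39 and 4.74 on the log2 scale, with no overlap.

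Sprouty genes, which dampen receptor tyrosine kinase signals upstream of ERK, were uneven. Spry2 (44.8 to 67.9 against 7.68 to 10.2) and Spry4 (3.34 to 4.28 against 0.132 to 0.2004) were higher by 2.41 and 2.02, Spry4 having passed the filter through the high libraries alone, and Spred2 (38.4 to 41.7 against 13.2 to 21.2) by 1.17, whereas Spry1 (8.06 to 8.94 against 3.08 to 6.15) and Spred1 (29.9 to 30.3 against 14.6 to 18.1) did not reach 2-fold. Dusp1, which acts first on p38 and JNK and is an immediate-early gene in many cells, was at 119, 115 and 107 in the high and 63.9, 77.4, 87, 85.2 and 90.1 in the low libraries, a difference of 0.5. Dusp7, Dusp8 and Dusp14 were wholly higher by 0.44, 0.92 and 0.59, Dusp10 overlapped, and Dusp2 was listed at 0. Of 25 tested genes of the cascade and its Ets and MRTF partners, 3 were higher, with a median of 0.11, and all 3 were Ets factors: Etv4 (13.4 to 19.3 against 0.376 to 1.51), Etv5 (7.53 to 9.29 against 0.429 to 0.89) and Ets1 (42.7 to 68.5 against 22 to 25.4). Etv4 and Etv5 passed the filter through the high libraries alone. Mapk3, Map2k1 and Egfr overlapped between the sets. Elk4 lay wholly higher by 0.60, and 4 members lay wholly lower by under 2-fold (Elk1 -0.57, Mkl2 -0.37, Mapk9 -0.27 and Braf -0.19). Of all tested genes 4.28% were higher, 19.3% lay wholly higher and 17.2% wholly lower.

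Secreted ligands were mostly in the higher group too. Of 15 tested ligand genes of 27 listed, 11 were higher, against 4.28% of all tested genes, with a median of 1.96. Hbegf, a ligand of the EGF receptor, was at 57.3, 70.3 and 66.3 in the high and 2.32, 1.27, 2.61, 2.74 and 1.14 in the low libraries. Ereg, epiregulin of the same family, was at 27.9, 40.6 and 32.2 in the high and 1.65, 0.752, 1.56, 1.43 and 1.01 in the low libraries. Lif, an interleukin-6 family cytokine, was at 77.2, 73.8 and 72.8 in the high and 2.53, 2.83, 2.48, 6.05 and 3.96 in the low libraries. Vegfa (122 to 138 against 8.39 to 17.1), Csf1 (437 to 576 against 79.9 to 113), Inhba (30.9 to 44 against 4.88 to 5.64) and Ccl2 (253 to 282 against 46.6 to 77.3) lay higher by 3.28, 2.35, 2.67 and 2.2. The neurotrophin Bdnf (16.8 to 21 against 6.59 to 8.15) was higher by 1.2.

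In the matricellular and cytoskeletal serum-response list, 17 of 21 tested genes were higher, against 4.28% of all tested genes, with a median of 1.97. Ctgf and Cyr61, matricellular targets of YAP and SRF now also called Ccn2 and Ccn1, were at 731 to 815 against 20.8 to 37.9 and 1839 to 2195 against 112 to 162. Thbs1, thrombospondin, was at 2581, 2715 and 1908 in the high and 163, 179, 194, 180.4 and 219 in the low libraries, and Ptgs2, the inducible cyclooxygenase, at 225, 249.6 and 214 in the high and 9.58, 6.65, 14.3, 16.1 and 10.3 in the low libraries. Among the cytoskeletal members, Acta2, smooth muscle actin, was at 60.8, 52.7 and 44.9 in the high and 1.72, 1.23, 2.47, 3.93 and 3.15 in the low libraries. Vcl, Flna, Myh9, Tpm1, Actb and Actg1 were higher by 1.72, 1.42, 1.31, 1.97, 1.13 and 2.1. Tagln overlapped. Actb and Actg1 are near-identical in their coding sequence, so their values depend on how reads were shared between them.

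**Figure D3:**
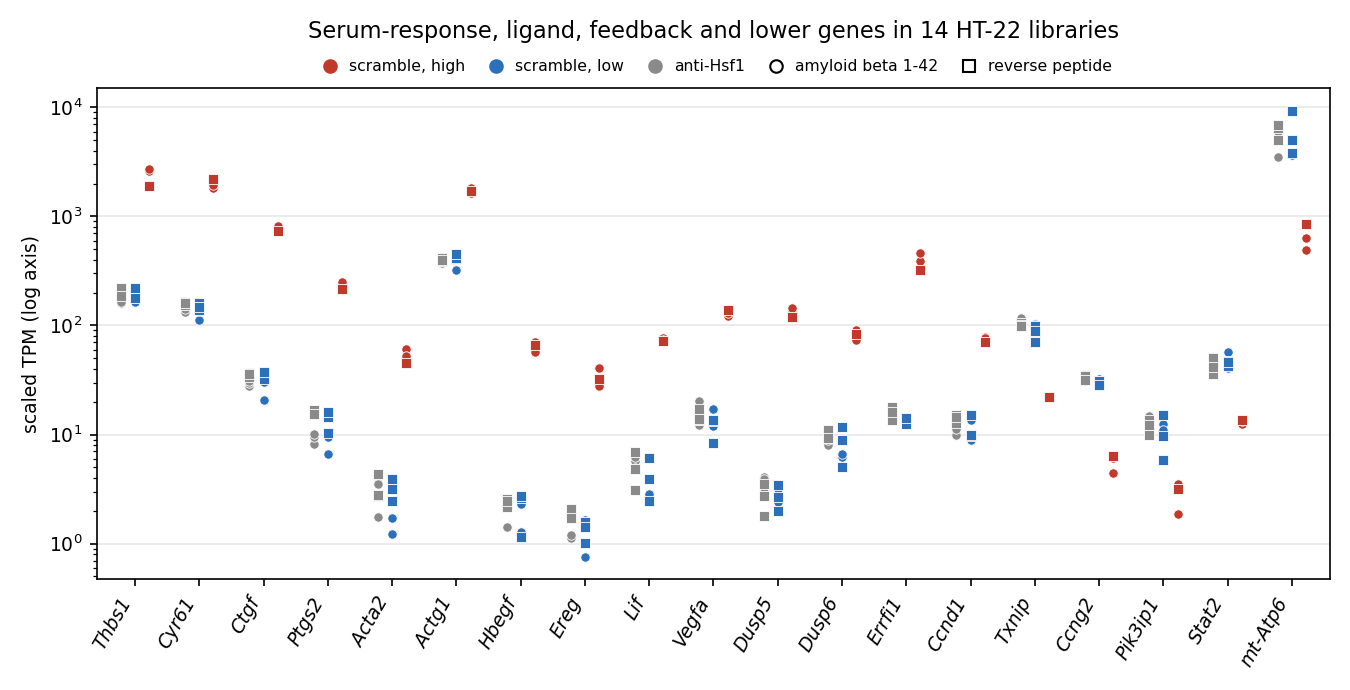
Scaled TPM on a log axis for matricellular and cytoskeletal genes, ligands, feedback genes, Ccnd1 and 5 genes that were lower, in the 14 HT-22 long-RNA libraries, with 1 point per library, colour for the set and shape for the peptide. Ctgf lies at 731 to 815 in the high and 20.8 to 37.9 in the low libraries, and Txnip at 22 to 22.3 in the high and 69.98 to 103 in the low libraries.

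Promoter sequence gives context for these groups. The CArG box is the binding motif of serum response factor, TGACGTCA is the CRE bound by CREB, and GCGNGGGCG is bound by Egr factors. These motifs were searched on both strands, and do not contain one another, in 32851 RefSeq windows (GRCm38.p6) from 250 bases before to 50 bases after a gene's start. The CRE was in 1.79% of all windows, 3.19% of those of tested protein-coding genes and 3.13% of those of protein-coding genes that were higher. The Egr motif was in 5.55%, 10.6% and 10.3%, so neither was more frequent in the higher genes than in the tested ones. A CArG box was in 1.63% of all windows, in 1.33% of those of tested protein-coding genes, in 4.00% of the 575 windows of protein-coding genes that were higher (from 19 genes, with 434 of the 557 genes matched) and in 0.694% of the 144 windows of those that were lower. In the regulator list it was in 6 of 34 windows, from 3 genes, and in the serum-response list in 4 of 16, from 3 genes. The CArG box was not the only motif more frequent in the higher genes. The AP-1 motif TGANTCA was in 7.30% of their windows, against 4.67% of those of tested protein-coding genes. TATAAA was in 8.17% against 4.16%, and GGAATG, listed as the TEAD motif, in 13.7% against 11.8%. The first 250 bases of 4 windows are shown because their genes were among those with the largest differences (Nr4a1, Dusp5, Errfi1) or encode a cytoskeletal actin (Actg1). Each holds at least 1 CArG box, CRE or Egr motif, in capitals. Dusp5 holds a pair of CArG boxes end to end, and Errfi1 the CRE. Nr4a1 holds the Egr motif in reverse, and Actg1 a CArG box between Egr motifs in both orientations. A match is a description and not a site of binding. The Fos window held no CArG box, CRE or Egr motif, which says only that these letters are not in it.
Dusp5 (chr19:53528895-53529144, plus strand): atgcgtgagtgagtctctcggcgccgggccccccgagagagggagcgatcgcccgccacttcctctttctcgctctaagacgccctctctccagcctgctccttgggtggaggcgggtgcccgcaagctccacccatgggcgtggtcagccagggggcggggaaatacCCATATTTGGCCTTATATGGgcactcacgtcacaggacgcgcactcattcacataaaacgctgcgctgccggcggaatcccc
Errfi1 (chr4:150854820-150855069, plus strand): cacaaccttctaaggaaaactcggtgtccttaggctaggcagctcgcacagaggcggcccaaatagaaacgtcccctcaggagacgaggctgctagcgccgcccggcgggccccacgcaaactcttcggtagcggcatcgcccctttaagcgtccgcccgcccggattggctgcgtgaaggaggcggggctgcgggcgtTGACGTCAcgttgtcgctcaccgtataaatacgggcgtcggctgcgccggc
Nr4a1 (chr15:101266596-101266845, plus strand): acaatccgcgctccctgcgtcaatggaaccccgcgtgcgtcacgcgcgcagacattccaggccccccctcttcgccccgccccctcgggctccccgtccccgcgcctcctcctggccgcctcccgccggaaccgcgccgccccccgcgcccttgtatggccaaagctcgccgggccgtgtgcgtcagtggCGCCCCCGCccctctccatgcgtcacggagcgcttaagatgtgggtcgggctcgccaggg
Actg1 (chr11:120348496-120348745, minus strand): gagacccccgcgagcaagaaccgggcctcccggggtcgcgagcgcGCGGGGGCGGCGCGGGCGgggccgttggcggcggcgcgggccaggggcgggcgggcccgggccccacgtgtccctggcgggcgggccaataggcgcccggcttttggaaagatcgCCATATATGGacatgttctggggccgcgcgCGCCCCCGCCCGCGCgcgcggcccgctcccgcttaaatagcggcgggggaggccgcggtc

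Egr2 held a CArG box in 4 of its 5 overlapping or neighbouring windows. The window with the classical box, at 72 bases before one start, is shown because the high libraries differed widely among themselves in this gene.
Egr2 (chr10:67537619-67537868, plus strand): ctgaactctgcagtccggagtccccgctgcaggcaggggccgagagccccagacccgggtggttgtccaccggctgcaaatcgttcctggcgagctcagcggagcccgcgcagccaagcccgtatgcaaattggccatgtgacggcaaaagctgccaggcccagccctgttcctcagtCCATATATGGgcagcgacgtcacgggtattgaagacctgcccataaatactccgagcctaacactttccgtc

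Genes used as markers of neuronal activity were mostly in the higher group, 10 of 14 tested of 16 listed with a median of 1.43. That compares with 4.28% of all tested genes, although several also belong to the lists above. Npas4, a factor largely confined to depolarised neurons in brain, was at 6.15, 6.02 and 4.2 in the high and 0, 0.264, 0.239, 0 and 0 in the low libraries, so it was detected in each high library and at or near 0 in the low ones, and it passed the filter through the high libraries alone. Homer1, a postsynaptic scaffold with an activity-induced short form, was at 21.3 to 28.7 against 6.17 to 8.25, Gadd45b at 78.6 to 95.3 against 24.9 to 30.5, and Plk2, a kinase, at 435 to 610.3 against 98.5 to 127. Rgs2, which limits G protein signalling, was lower, at 8.2, 11.3 and 13.1 in the high and 17.7, 24.6, 22, 23.5 and 25 in the low libraries.

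Stress lists divided. Of 17 tested heat shock genes none was called in either direction, with a median of 0.21. Hspa1a, the inducible Hsp70, was at 6.98, 6.28 and 4.18 in the high and 9.1, 13.1, 13.1, 7.35 and 12.4 in the low libraries, a difference of -0.81, and Dnajb1 at 68.5 to 80.1 against 38.5 to 45.6. Hsf1 was at 63.9, 70.9 and 56.3 in the high and 48.7, 61.7, 53.2, 42.9 and 61.6 in the low libraries and overlapped. Of 13 genes of the integrated stress response, all 13 lay wholly higher and 7 by at least 2-fold (median 1.09), with Chac1, a glutathione-degrading enzyme, at 93.5 to 101 against 10.5 to 15.2, Sesn2 at 53.8 to 56 against 12.2 to 20.4 and Trib3 at 23.1 to 31.3 against 5.82 to 11.9. All 10 oxidative stress genes lay wholly higher, 6 of them by at least 2-fold (median 1.21), among them Hmox1, haem oxygenase, at 273, 339 and 361 in the high and 47.2, 47.8, 60.8, 57.5 and 48.3 in the low libraries. Of 11 p53 targets 3 were higher (Btg2, Plk2 and Cdkn1a), with a median of 0.76. Cdkn1a, the p21 cell cycle inhibitor, was at 125 to 143 against 34.6 to 42.9. Of 9 NF-kB targets 1 was higher, Tnfaip3, with values of 14.1, 18.1 and 4.84 in the high libraries and 2.1 to 3.33 in the low libraries. The median of that list was 0.14.

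Lists for metabolism, the cell cycle and the clock were uneven. Hypoxia and glycolysis genes and clock genes were called higher more often than all tested genes (4.28%), cholesterol synthesis and cell cycle genes were not or only about as often. Of 12 hypoxia and glycolysis genes 4 were higher: Vegfa, Hk2 (30.6 to 33.2 against 6.77 to 8.999), Slc2a1 (86.5 to 90.3 against 37.7 to 44.8) and Ldha (268 to 296 against 130.4 to 162), with a median of 0.61 for the list. No cholesterol synthesis gene of 14 was called (median 0.29). Of 20 cell cycle genes 1 was higher, Ccnd1, the cyclin D1 that links mitogens to the cycle, at 77.7, 77.1 and 70.8 in the high and 8.91, 13.5, 9.66, 9.84 and 15.2 in the low libraries, and the list's median was 0.16. Counted without the fold limit, 8 of the 20 lay wholly higher and 4 wholly lower (Bub1 -0.74, Mki67 -0.53, Plk1 -0.39 and Aurka -0.26). Those shares were 19.3% and 17.2% over all tested genes. Of 12 clock genes 4 were higher (Per1, Per2, Cry1 and Cry2), with a median of 0.36. Per2 passed the filter through the high libraries alone. Per2 was at 7.49, 8.03 and 5.58 in the high and 0, 0, 0.197, 0.0906 and 0.213 in the low libraries.

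Lists added after the values were seen are given as further description. Of 12 tested TGF-beta and BMP targets 9 were higher (median 2.58), against 4.28% of all tested genes. Id1 was at 238, 217 and 303 in the high and 7.04, 8.43, 13.2, 9.64 and 15.5 in the low libraries. Smad7, an inhibitor of the pathway, was at 78.3, 84.9 and 92.7 in the high and 6.41, 8.97, 7.6, 7.87 and 9.55 in the low libraries, and Snai1 and Skil at 95.4 to 151 against 10.1 to 15.3 and 42.5 to 57.3 against 5.88 to 8.85. None of 24 ribosomal protein genes was called (median 0.30).

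The lower genes had another composition. Of the 732 higher genes 557 (76.1%) were protein coding, against 159 of the 645 lower genes (24.7%) and 64.7% of all genes tested. The lower group held 134 entries of the TEC class of GENCODE, 119 processed pseudogenes and 56 antisense genes, and its median level was 4.07 scaled TPM, against 19.2 in the higher group. The sources used here do not say whether the authors' counting used strand, so an antisense entry and its sense partner cannot be told apart.

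Of 16 genes listed as growth-factor-repressed and linked to FoxO factors, 7 were lower and 1 higher (Irs2), with a median of -0.97. That list was added after seeing the values, and how these genes are regulated here was not tested. Txnip, which limits glucose uptake, was at 22.2, 22.3 and 22 in the high and 103, 100.2, 99.8, 69.98 and 89.5 in the low libraries. Ccng2, an atypical cyclin of resting cells, was at 4.42, 6.1 and 6.42 in the high and 32, 31.3, 30.9, 30.9 and 28.4 in the low libraries. Pik3ip1, an inhibitor of PI3 kinase, was at 1.86 to 3.51 against 5.81 to 15, Bmf at 4.91 to 7.27 against 13 to 24.8 and Cdkn1b, the p27 inhibitor, at 29.6 to 47.3 against 58 to 91.9. Foxo1, Foxo3 and Foxo4 lay wholly lower by under 2-fold. Of 18 tested interferon-stimulated genes, also listed after seeing the values, 6 were lower and none higher (median -0.53), against 3.77% of all tested genes lower. Of these, Usp18 averaged below 1 in the high libraries and passed the filter through the low libraries alone. Stat2 was at 12.4, 13.4 and 13.7 in the high and 40.8, 56.9, 42.4, 47.7 and 46.1 in the low libraries. Irgm2 was at 1.2 to 1.54 against 6.77 to 8.52, while Isg15, Ifit1 and Irf7 overlapped. Hoxc6 (7.16 to 10.1 against 38.3 to 45.3) and Hoxa3 (2.89 to 4.12 against 12 to 18.6) were also among the 15 protein-coding genes with the largest negative differences.

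Mitochondrially encoded mRNAs were lower in 6 of 13 cases, against 3.77% of all tested genes, with a median of -1.03, and the members differed unevenly. mt-Atp6 was at 491, 637 and 847 in the high and 3651, 3676, 5031, 9331 and 3788 in the low libraries. mt-Atp8 was at 202, 289 and 336 in the high and 1027, 1890.2, 3544, 7501 and 2162 in the low libraries, and mt-Nd6, encoded on the opposite strand from the others, at 125, 134 and 223 in the high and 582, 951, 1991, 3944 and 1054 in the low libraries. By contrast mt-Co1 and mt-Co3 overlapped, with differences of -0.07 and -0.22. The mitochondrial mRNA share of TPM was 2.37% to 2.91% in the high and 3.96% to 8.66% in the low libraries. mt-Atp8 overlaps mt-Atp6 and mt-Nd4l overlaps mt-Nd4 on the genome, so these values are uncertain. Hist2h3c1, a histone gene with near-identical copies, was at 30.2, 0.112 and 2.75 in the high and 73.2, 105, 161, 65.1 and 129 in the low libraries, the most negative difference of the named genes, and its high libraries differed widely among themselves. Of 63 tested Hist genes it was the only one called.

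**Figure D4:**
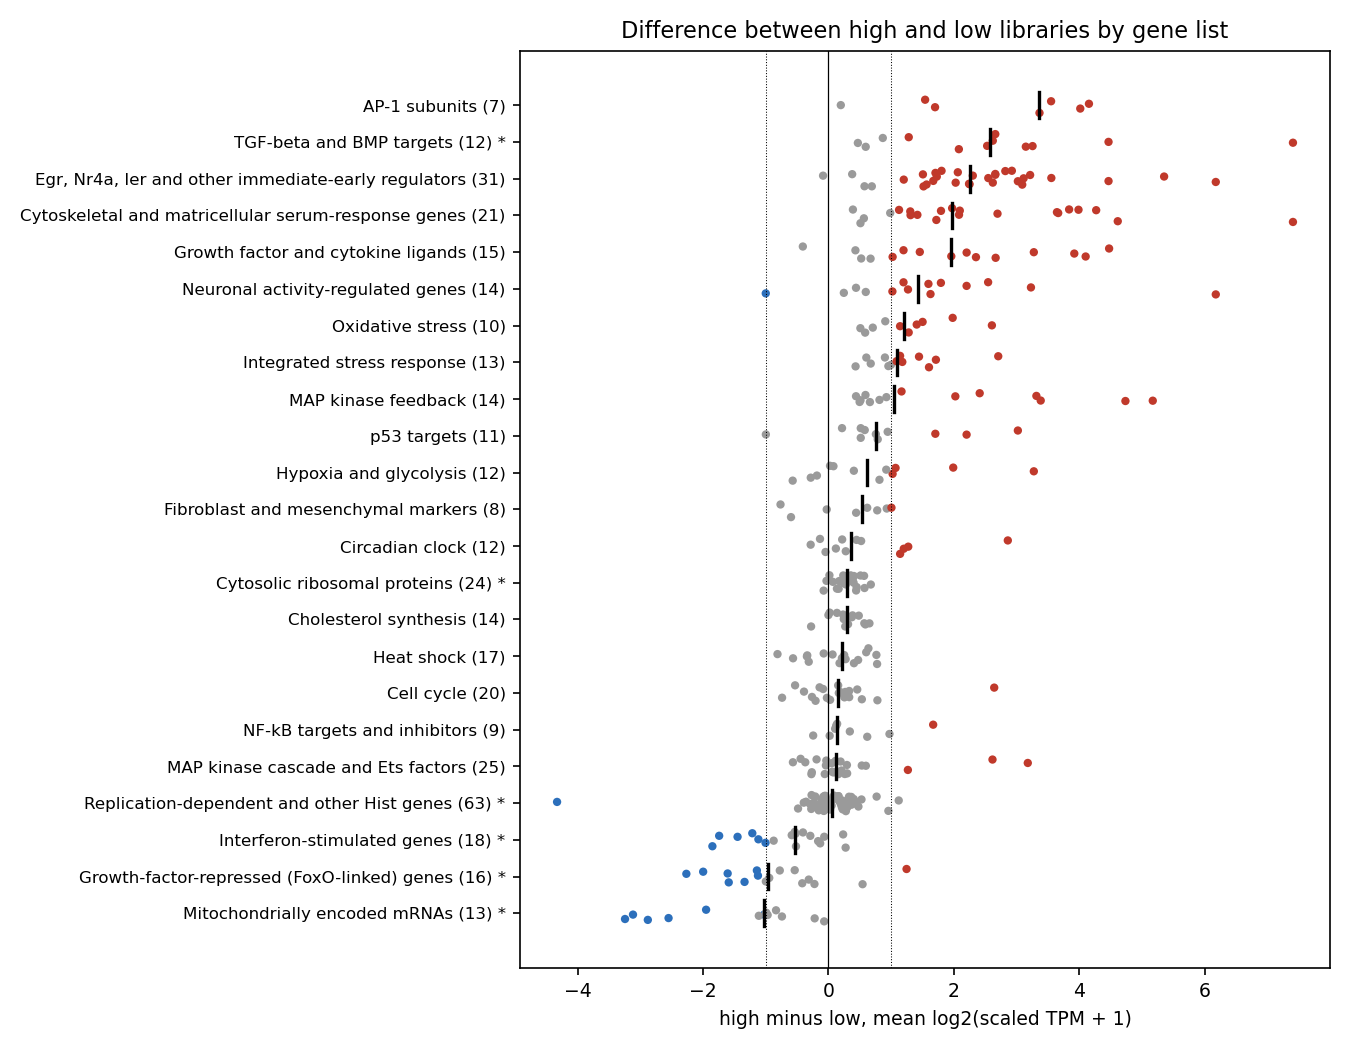
Each point is a gene, placed by its difference in mean log2(scaled TPM + 1) between the 3 high and 5 low libraries, in rows by gene list with the number tested in brackets, an asterisk for lists added after seeing the values and a black bar for the median. Red points are called higher and blue points lower, and dotted lines mark 2-fold. AP-1 subunits have a median of 3.37 (the value of Fos, on which the libraries were chosen), heat shock genes of 0.21 and mitochondrially encoded mRNAs of -1.03.

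The 3 high libraries were close to each other for most of the 732 higher genes. The median range among them was 0.29 on the log2 scale, against 0.62 among the 5 low libraries, a range that grows with the number of libraries. The rule that the sets do not overlap favours genes whose libraries lie close, so this closeness was partly set by the selection. The high libraries also held higher levels of these genes, mostly at greater depth, and the part of level and depth was not tested. For 31 of the 732 (4.23%) the high libraries spread by 2-fold or more, as for Egr2 and Tnfaip3. The reverse-peptide library was the lowest of the 3 for 374 and the highest for 172 of the 732. The sets also differed within each peptide. With 2 high and 2 low Aβ42 libraries 1005 genes were higher, and with 1 high and 3 low reverse-peptide libraries 777, over 16373 genes common to both. These counts shared 550 genes, which is 54.7% of the first and 70.8% of the second, and 9 genes went opposite ways. The lower genes numbered 878 and 1025 and shared 406 (46.2% and 39.6%), with 6 opposite. Nr4a1 differed by 6.56 within Aβ42 and 5.91 within the reverse peptide. The libraries were chosen with either peptide, so these within-peptide values describe the choice.

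The 6 anti-Hsf1 libraries are in neither set, although the sets were proposed with all 14 libraries in view. Their Fos was 3.47 to 6.60 and their Egr1 28.0 to 41.7, both below every high library. Over the 732 higher genes the median difference of the anti-Hsf1 libraries from the low libraries was 0.05, against 1.38 for the high libraries, and for 594 of them no anti-Hsf1 library passed the midpoint between the sets. Over the 645 lower genes that median was -0.12, against -1.27 for the high libraries, and for 371 of them no anti-Hsf1 library passed the midpoint. Hsf1, the target of that LNA, was at 42.9 to 52.4 in the anti-Hsf1 and 42.9 to 70.9 in the 8 scramble libraries. Across the 17 hippocampus libraries, scaled on their own, Fos ran from 4.53 to 26.8 (median 8.24), Egr1 from 15.7 to 91.9 (25.5) and Nr4a1 from 12.5 to 54.6 (21.01). Levels of the mouse and the HT-22 libraries come from separate scalings and were not compared by a test.

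The labelled contrasts of the study hold the high libraries unevenly, since 2 of 4 Aβ42 scramble, 1 of 4 reverse-peptide scramble and none of 6 anti-Hsf1 libraries were high. With limma on all 14 libraries, no gene of 17207 (0%) had an adjusted p below 0.05 for Aβ42 against the reverse peptide under scramble LNA, for the same contrast under anti-Hsf1 LNA, or for anti-Hsf1 against scramble averaged over the peptides. At an unadjusted p below 0.05 there were 865, 788 and 1399 genes. Hsf1 differed by -0.26 between the LNAs, with a limma adjusted p of 0.583. Fos differed by 0.72 between the peptides under scramble, and by -0.40 once the 3 high libraries were left out. For anti-Hsf1 against scramble, Fos moved from -0.97 to 0.33 on leaving them out and Egr1 from -0.90 to 0.31. Nr4a1 moved from -1.74 to 0.64. Egr1 and Nr4a1 also turned between the peptides under scramble, from 0.40 to -0.36 and from 1.19 to -0.61. The 3 libraries were chosen for their Fos, Egr1 and related genes, all under scramble LNA and 2 of them with Aβ42. The direction of these moves was therefore set by the choice, and they are given as a description.

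Over 717 of the higher genes in that fit, the median peptide difference under scramble went from 0.36 to -0.09 and the median LNA difference from -0.50 to 0.06. Over 641 of the lower genes the medians went from -0.34 to -0.05 and from 0.38 to -0.11. These genes were selected on the libraries left out, so their move was likewise set by the choice. The medians of all genes were between -0.01 and 0.01. The median residual standard deviation of a gene fell from 0.30 to 0.23 on the log2 scale. A fall was favoured by the choice, because the libraries left out were those that stood apart. Without the 3 high libraries limma called 1 gene between the peptides under scramble, Praf2 (-1.96, adjusted p = 0.00872), and 4 under anti-Hsf1 LNA, Vkorc1l1 (1.67, adjusted p = 0.0376) and the predicted genes Gm24270, Gm25911 and Gm24187, and none between the LNAs. The libraries left out were chosen on the readout, and the spread fell without them, so these adjusted p are a description and not valid tests. Praf2 rests on 2 Aβ42 against 3 reverse-peptide libraries. The changes of the other 4 were the same with all 14 libraries (Vkorc1l1 limma adjusted p = 0.612), so only the shared estimate of the spread differed. The 3 predicted genes are also among the genes lower in the high libraries, Praf2 and Vkorc1l1 overlapped between the sets, and none of the 5 is in the immediate-early lists.

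Short-RNA libraries carry corresponding titles and numbers, and per the design text RNA of one extraction was divided between long and short libraries. Matching them by number is an assumption, because the labels do not state the pairing. On that assumption they give a readout that did not enter the choice. They hold counts at positions along B2, a short interspersed repeat whose noncoding RNA is cut into fragments. Whether a count marks a fragment end or a covered base is not given. The share of B2 counts at positions above 20 was 77.96%, 77.2% and 74.4% in the libraries numbered as the high ones and 76.3%, 74.6%, 75.2%, 69.2% and 73.04% in those numbered as the low ones. The widest 95% Wilson interval, which covers counting error only, was that of reverse-peptide replicate 2, 66.9% to 71.5%. The sets overlapped, with means of 76.5% and 73.6% and a difference of 2.89 percentage points (two-sided exact permutation test, p = 0.161, with 56 arrangements and 0.0179 as the smallest p possible, and p = 0.0833 when permuted within peptide). Total B2 counts were 4175, 2741 and 4246 against 3992, 3820, 2464, 1550 and 1873, a difference of 0.51 in mean log2 (exact permutation p = 0.232). Adjusted over these 2 comparisons by Benjamini-Hochberg, both exact permutation p were 0.232.

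Of 100 B2 positions tested with edgeR's quasi-likelihood test, 2 (2%) had a Benjamini-Hochberg adjusted p below 0.05. Position 108 took 2.97%, 1.82% and 1.55% of counts in the high-numbered libraries and 1.303%, 1.07%, 0.365%, 0.7097% and 1.12% in the others (log2 difference 1.179, edgeR adjusted p = 0.0212). Position 94 took 0.311%, 0.474% and 0.165% against 0.902%, 0.707%, 0.731%, 0.7097% and 1.44% (-1.53, edgeR adjusted p = 0.0212). At both positions the libraries did not overlap, on 9 to 124 counts at position 108 and 7 to 36 at position 94. The calls rest on single libraries: leaving out Aβ42 replicate 3 left none, and leaving out Aβ42 replicate 1 gave 8.

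**Figure D5:**
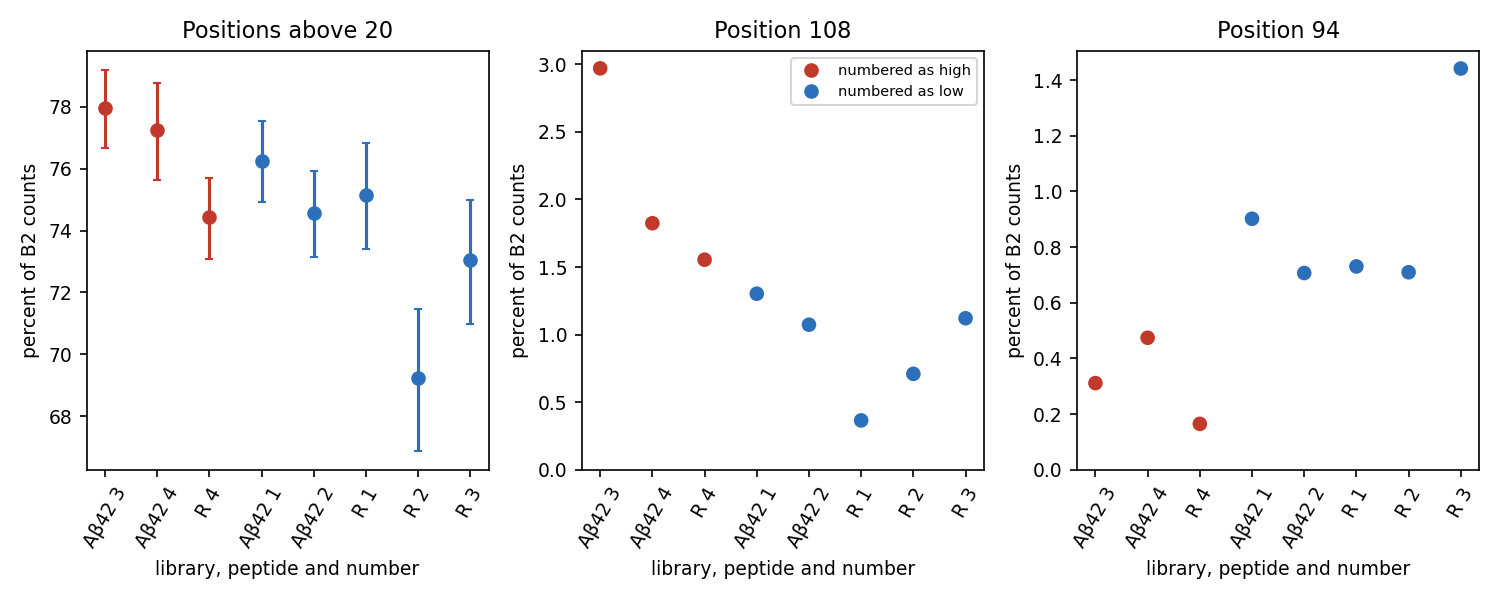
The percent of B2 counts at positions above 20 (left, with 95% Wilson intervals that cover counting error), at position 108 (middle) and at position 94 (right), with 1 point for each of the 8 short-RNA libraries numbered as the scramble long-RNA libraries. The left axis does not start at 0. Position 94 lies at 0.165% to 0.474% in the libraries numbered as high and at 0.707% to 1.44% in the others.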

How the data were processed

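Per the file headers, the authors' long-RNA tables hold 3 values per gene (Coverage, FPKM and TPM), and the deposited short-RNA files hold whole-number counts for 119 positions of B2. Coverage was taken here as a mean depth over each gene and FPKM as a multiple of TPM. TPM carries no read number, so no count model was run on it. The submitters' processing notes name FastQC, cutadapt 1.18, BWA 0.7.17, HISAT2 2.1.0, bedtools 2.26.0, StringTie 1.3.4d and the builds mm10 and GRCm38, without their roles. Of 53975 gene identifiers 53934 are in GENCODE M21, 98.3% of all with the same coordinates.

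TPM was summed per gene identifier and divided by median-of-ratios factors, taken over HT-22 and mouse libraries separately. The members and gene lists were chosen with earlier results of these data known. Genes whose TPM averaged 1 or more were kept, with a pseudocount of 1. Labelled contrasts were fitted with limma 3.58.1 (R 4.3.3, trend and robust) over 14 libraries in 4 groups, with Benjamini-Hochberg adjustment at 0.05. B2 positions averaging 10 or more counts were tested with edgeR 4.0.16, taking B2 totals as library sizes, and shares with exact permutation tests (Python 3.11.15, scipy 1.17.1). A B2 total is not the depth of a library, and the depth of those libraries is unknown. On simulated data for the peptide contrast under scramble (17207 genes, 200 changed), limma recovered 58% of genes changed by 1 and 85.5% of those changed by 2 on the log2 scale. It made 11 and 12 false calls. The simulated noise was independent between genes and lacked the split that the high libraries bring, so the recovery does not give the power in the real libraries. On simulated B2 counts (20 changed positions), edgeR recovered 0% of 1.5-fold changes, over 103 positions, and 60% of 2-fold changes, over 102 positions. Named with values were the AP-1, Egr, Nr4a, Ier, Dusp and Spry genes, the 15 protein-coding genes with the largest difference in each direction (mean scaled TPM of at least 5), and called members of the other lists, or the 2 with the largest difference where none was called, and some of these are not reported here. One library outside the 8 is titled short RNA but described as long RNA, and its title was used.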

Additional observations from a re-analysis of the deposited data

Results flagged for a closer look

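In the 4 reverse-peptide scramble libraries, log2 Egr1 had 1 library far from the others, with a gap of 0.841 of the group's whole range, above Dixon's critical value for 4 samples. That library is replicate 4, which was chosen for this value. Among the 153 named genes, 79 had 1 library apart by the same limit in that group, and in all 79 it was replicate 4, while 0 did in the 4 Aβ42 scramble libraries, where 2 libraries were high and 2 low. Chance marks about 1 in 20 groups, but the genes were named for the difference between these libraries, so the 79 are a description of the choice.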

How the results depend on the processing

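For high against low libraries, the count of 1377 genes (732 higher, 645 lower) was 1461 on TPM as deposited, 1976 (889 and 1087) with a pseudocount of 0.1, 1437 with no filter and 1394 to 1569 on leaving out each library. It was 838 (578 and 260) at a mean TPM of at least 5. Within the Aβ42 and the reverse-peptide libraries alone it was 2015 and 1977.

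Limma counts for peptide under scramble, peptide under anti-Hsf1 and LNA, all 0 in the main analysis, were 0, 4197 and 4776 on TPM as deposited. Of those 4190 and 4751 were lower, and that scale moved the medians of all genes to -0.52 and -0.29 (0.15 for the first contrast). With no filter they were 0, 2 and 2, with array weights 0, 13 and 0, without the 3 high libraries 1, 4 and 0, and with the replicate number as a block 1, 0 and 0. Deviations of same-numbered libraries from their group means correlated at -0.22 to 0.58 over 19 pairs (median 0.01). The highest was between the scramble replicates 4, both high, and the lowest between the scramble replicates 3, 1 high and 1 low. The split into sets thus enters these values, so they cannot decide whether same-numbered libraries belong together. Leaving out each library gave 0 for the first, 0 to 2 for the second (2 without Aβ42 anti-Hsf1 replicate 3, 1 without reverse-peptide scramble replicate 2) and 0 to 1 for the LNA contrast (1 without reverse-peptide anti-Hsf1 replicate 1). The cause was not tested.

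No named gene whose sign turned was called. Between peptides under scramble, without the high libraries, Fos was -0.40, Egr1 -0.36 and Nr4a1 -0.61. On leaving out each library Fos ran from -0.042 (without Aβ42 replicate 4) to 1.46, and Egr1 from -0.15 (without Aβ42 replicate 4, and -0.11 without replicate 3) to 1.22. Under anti-Hsf1, Fos was 0.070 with quantile normalisation, and 0.14, 0.069 and 0.080 without Aβ42 replicates 1 and 2 and reverse-peptide replicate 3 (-0.24 to 0.14 over all libraries left out). Hsf1 was 0.027 without Aβ42 replicate 1 and 0.034 without reverse-peptide replicate 1. For LNA without the high libraries Fos was 0.33, Egr1 0.31 and Nr4a1 0.64.

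B2 positions called, 2 in the main analysis, were 1 with DESeq2, 2 with TMM, no filter or a peptide term, and 0 to 8 on leaving out each library. The B2 share differed by 1.79 to 3.95 percentage points on leaving out each library, with no p below 0.05. No paired analysis was possible for B2 because the sets hold unlike replicate numbers of the same groups.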

Other observations

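Over the 17 hippocampus libraries, Ivns1abp had the pattern most like that of Fos of 10968 genes, with a Spearman rho of 0.91. Over the 6 anti-Hsf1 libraries, 14 of 11564 genes had the same rank order as Fos, and 6 libraries are too few to single out any of them. Libraries of one group share their treatment or age, and these are descriptions.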
